A study of Mus musculus with 41 samples.

Results

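The collagen genes are the genes whose symbol on the array reads Col, a number, the letter a and a number. Membership rests on that name alone, while the group was chosen with earlier results of these data known. Of the 19057 genes named by a single symbol on the array, 41 carried such a name, measured by 91 of 45281 probes. The array held no annotated probe for *Col6a3* or *Col12a1* under this rule, and both were not analysed here.

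RNA was measured on 41 arrays (Illumina mouse WG-6) from offspring of C57/BL6NHsd mice at postnatal day 4, whose dams had been given oral metformin, a glucose-lowering drug, or vehicle during gestation. In one study the dams ate a high fat diet (HFD), and the male offspring gave subcutaneous adipose tissue (SAT; 5 metformin, 6 control) and liver (6 metformin, 6 control). In the other the dams ate a regular diet (RD), and the male offspring gave brain and liver and the female offspring liver, each with 3 metformin and 3 control samples. The SAT samples came from the same animals as the livers, except that metformin animal 10K-1 gave liver only, and the brains came from the RD male liver animals. The HFD and RD samples belong to different studies, so maternal diet and study cannot be told apart. SAT RNA was extracted with another kit than liver and brain RNA, so tissue and kit cannot be told apart in the comparison of SAT with liver. In the HFD study the animal codes 3R and 10K occur only in metformin offspring and the codes 1R and 1T only in controls, so code and treatment cannot be told apart, and what the codes mean is not given in the sources used here. Values are on the log2 scale after background correction and quantile normalization, and a difference of 1 is a doubling of intensity.

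Collagens are secreted or membrane proteins built around a triple helix of alpha chains, and they form much of the extracellular matrix. Fibrillar collagens (types I, III and V among them) make the tensile fibres of connective tissue, type IV collagens make the sheet of the basement membrane, and type VI collagens make beaded filaments around cells such as adipocytes. The multiplexins (types XV and XVIII) are proteoglycans of basement membrane zones, the FACIT collagens sit on the surface of fibrils, and the fragment endostatin is cut from the end of type XVIII collagen.

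*Col4a1* and *Col4a2*, the chains of the main type IV collagen, lie head to head on chromosome 8 with start sites 21 bases apart, and their promoter windows are shown because these neighbouring genes are followed together in every comparison. Sequences are from RefSeq on mouse build GRCm38.p6 and run 5′ to 3′ on the strand of each gene, covering 250 bases before the start and 50 after it. The *Col4a1* window is chr8:11312777-11313076 on the minus strand and the *Col4a2* window is chr8:11312555-11312854 on the plus strand. The 78 bases in capitals are shared by both windows and read as reverse complements of each other.

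Col4a1: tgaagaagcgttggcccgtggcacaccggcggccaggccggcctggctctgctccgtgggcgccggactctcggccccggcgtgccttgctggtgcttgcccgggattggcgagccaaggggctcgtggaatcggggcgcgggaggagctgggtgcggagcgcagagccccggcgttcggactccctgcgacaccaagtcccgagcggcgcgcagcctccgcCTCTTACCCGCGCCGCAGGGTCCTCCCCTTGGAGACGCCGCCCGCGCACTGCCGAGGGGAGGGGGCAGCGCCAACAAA

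Col4a2: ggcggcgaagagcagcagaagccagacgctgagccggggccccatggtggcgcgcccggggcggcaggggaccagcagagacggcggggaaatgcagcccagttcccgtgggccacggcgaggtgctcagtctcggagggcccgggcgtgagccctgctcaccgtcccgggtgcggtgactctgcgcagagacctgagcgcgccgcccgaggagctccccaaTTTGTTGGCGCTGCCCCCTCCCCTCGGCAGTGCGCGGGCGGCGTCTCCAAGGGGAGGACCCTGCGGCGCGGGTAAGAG

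The windows of *Col1a2* (chr6:4505368-4505667, plus strand) and *Col3a1* (chr1:45311288-45311587, plus strand) are shown as those of fibrillar genes with some of the largest differences between SAT and liver. Capitals mark matches, on either strand, to the motifs spelled out after the sequences.

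Col1a2: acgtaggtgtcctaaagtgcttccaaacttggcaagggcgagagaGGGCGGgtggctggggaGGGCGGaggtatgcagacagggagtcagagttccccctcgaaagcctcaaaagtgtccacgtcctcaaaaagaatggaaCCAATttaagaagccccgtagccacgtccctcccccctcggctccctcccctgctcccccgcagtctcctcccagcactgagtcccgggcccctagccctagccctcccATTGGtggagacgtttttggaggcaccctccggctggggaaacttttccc

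Col3a1: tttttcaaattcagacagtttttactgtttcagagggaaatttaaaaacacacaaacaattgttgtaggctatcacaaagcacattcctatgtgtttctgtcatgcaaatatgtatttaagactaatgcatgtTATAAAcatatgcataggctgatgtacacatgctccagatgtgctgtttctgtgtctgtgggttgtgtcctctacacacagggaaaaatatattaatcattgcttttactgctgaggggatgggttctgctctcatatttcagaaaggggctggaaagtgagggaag

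RefSeq windows were matched for 33 of the 41 collagen genes, 36 windows in all. The motif GGGCGG was found on either strand in 23 of these 36 windows (63.9%), and in 35.7% of all 32851 promoter windows of the same length. The motif CCAAT was found in 13 of the 36 (36.1%) and in 37.4% of all windows. The motif TATAAA was found in 5 of the 36 (13.9%) and in 13.6% of all windows. These matches describe the letters of the windows and nothing was measured on them.

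Detection, a signal above the negative control probes of the array, differed between the tissues. Counting a gene as detected where any of its probes was, 17 of the 41 collagen genes were detected on each of the 11 SAT arrays, 17 on some and 7 on none. In liver, 10 were detected on each of the 24 arrays, 21 on some and 10 on none, and in brain 22 on each of the 6 arrays, 8 on some and 11 on none. The 7 genes *Col4a3*, *Col6a4*, *Col6a5*, *Col6a6*, *Col10a1*, *Col13a1* and *Col19a1* were detected on no array of any tissue.

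Between 29.9% and 46.1% of probes were detected per array, and 4 arrays of the HFD study lay at the dim end: SAT of controls 1R-4 (29.9%) and 1T-1 (31.6%) and liver of metformin animal 3R-6 (31.0%) and control 1R-4 (34.0%). Most tissue markers followed the labels. The mean of 6 hepatocyte genes lay between 5.11 and 8.11 in SAT and between 12.58 and 13.32 in HFD liver, and 7 adipocyte genes averaged 10.10 to 10.96 in SAT and 4.87 to 5.41 in HFD liver. In the RD study the mean of 6 neuron genes was 9.76 to 10.03 in brain and 4.72 to 6.19 in liver, highest in the liver of metformin male 3E, where the neuron gene *Stmn2* was at 8.97. *Stmn2* was detected in each RD male liver, at 6.58 to 7.31 in the controls. *Car3*, listed here among the adipocyte genes, was also high in RD control male liver, at 11.11 in the lowest sample. *Ttr*, listed among the hepatocyte genes, was at 12.79 to 13.91 in control brain. The neuron gene *Snap25* was detected in no brain. The dissected SAT also carried markers of other tissues. The mean of 10 skeletal muscle genes was 11.66 to 12.92 in metformin SAT and 6.78 to 12.76 in control SAT, lowest in controls 1R-4 (6.78), 1T-3 (8.73) and 1T-1 (9.55). The mean of 10 keratinocyte genes was 8.16 in SAT of metformin animal 3R-1, against 5.57 to 6.10 in the other metformin SAT samples and 5.77 to 6.03 in control SAT.

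The first comparison asked how the collagen genes differ between SAT and liver in HFD control males. The fibrillar genes of types I, III and V stood 2.60 to 5.63 higher in SAT than in liver. *Col4a1* and *Col4a2* stood 2.89 and 2.52 higher, and the type VI chains *Col6a1* and *Col6a2* 4.27 and 4.03 higher. Among the collagen genes tested *Col15a1* differed most, at 62.6-fold, and its relative *Col18a1* lay 4.73-fold lower in SAT than in liver.

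**Figure D1:**
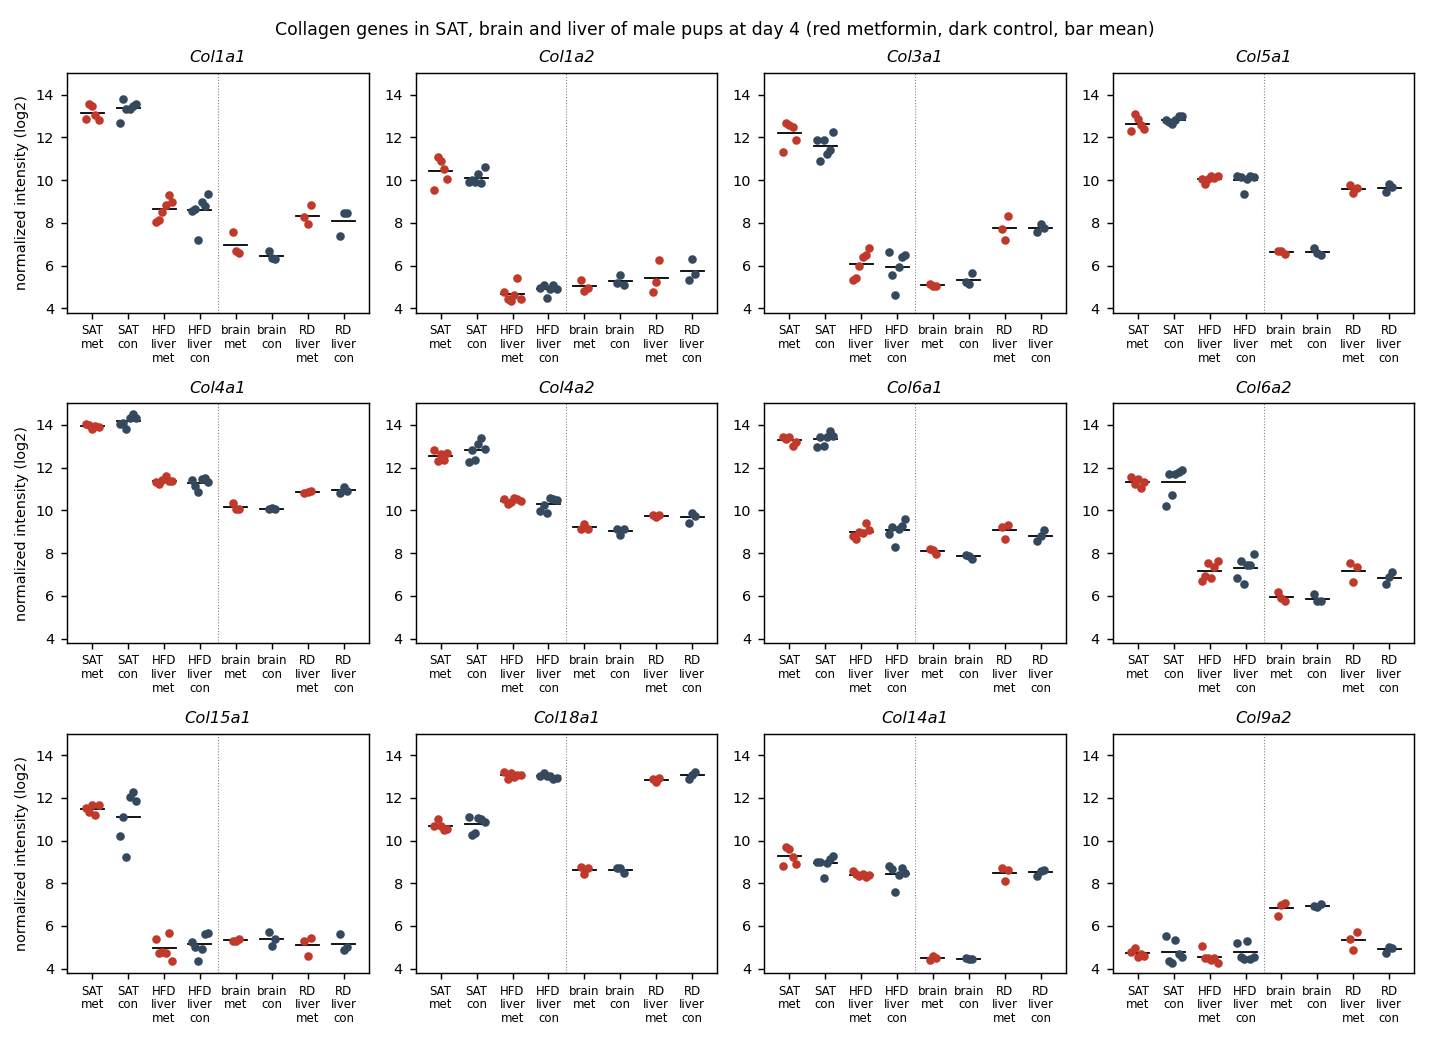
Normalized log2 intensity (vertical axis) of 12 collagen genes in single samples (points) of 8 groups, with bars at the group means. Metformin samples are red and stand left of their dark control samples. Every SAT sample lies above every HFD liver for *Col1a1*, *Col3a1* and *Col15a1*, *Col18a1* is highest in liver, and *Col9a2* is highest in brain.

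*Col1a1*, which encodes the main chain of type I collagen, ranged from 12.68 to 13.77 in control SAT (median 13.40), against 7.22 to 9.35 in control liver (median 8.72). Every SAT sample lay above every liver. The difference was 4.77 ± 0.28 (SE; 27.2-fold, adjusted p = 2.7e-13). *Col1a2*, the partner chain in type I collagen, was 5.20 ± 0.22 higher in SAT (36.7-fold, adjusted p = 6.53e-16), with 9.88 to 10.62 in SAT (median 9.96) and 4.48 to 5.11 in liver (median 4.94), where it was detected in 1 of 6 samples.

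*Col3a1*, the chain of type III collagen of soft connective tissue, ranged from 10.87 to 12.24 in control SAT (median 11.63), against 4.62 to 6.66 in control liver (median 6.19). The groups did not overlap and differed by 5.63 ± 0.34 (49.5-fold, adjusted p = 4.19e-13). Its other tested probe gave a smaller difference, of 3.50, but was detected in no HFD liver and could only be higher in SAT. The type V chains, which help set fibril width, were also higher in SAT: *Col5a1* by 2.82 ± 0.15 (7.07-fold, adjusted p = 4.53e-14) and *Col5a2* by 2.60 ± 0.25 (6.05-fold, adjusted p = 2.74e-09). *Col5a3* was detected in every control SAT sample and in no control liver, a difference of at least 6.02-fold (adjusted p = 4.43e-09).

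Both genes of the type IV pair shown above were higher in SAT. *Col4a1* ranged from 13.79 to 14.52 in control SAT (median 14.21), against 10.85 to 11.53 in control liver (median 11.37). *Col4a2* ranged from 12.28 to 13.39 in control SAT (median 12.85), against 9.85 to 10.59 in control liver (median 10.37). Neither gene overlapped between the tissues, and the differences were 2.89 ± 0.13 for *Col4a1* (7.43-fold, adjusted p = 1.04e-15) and 2.52 ± 0.17 for *Col4a2* (5.73-fold, adjusted p = 4.25e-12). *Col4a5*, a chain of another type IV trimer, differed by 0.73 ± 0.25 with overlapping groups (adjusted p = 0.0139).

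*Col6a1* and *Col6a2*, chains of the type VI filaments that surround adipocytes, differed by 4.27 ± 0.18 (19.3-fold, adjusted p = 3.64e-16) and 4.03 ± 0.27 (16.3-fold, adjusted p = 5.03e-12). *Col6a1* ranged from 12.95 to 13.70 in control SAT and from 8.31 to 9.59 in control liver. *Col6a2* ranged from 10.18 to 11.88 in control SAT, lowest in animal 1R-1, and from 6.53 to 7.97 in control liver. The further tested probes gave 4.54 and 2.71 for *Col6a1* and 2.57 for *Col6a2*. Only the *Col6a1* probe at 4.54 was detected in HFD liver. Those at 2.71 and 2.57 could only be higher in SAT.

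The multiplexins went opposite ways. *Col15a1* ranged from 9.25 to 12.28 in control SAT (median 11.47), against 4.38 to 5.69 in control liver (median 5.14), and even the lowest SAT sample, 1T-1, a dim array, stood above every liver. Its difference was 5.97 ± 0.37 (adjusted p = 1.14e-12). *Col18a1* ranged from 10.23 to 11.09 in control SAT (median 10.95), against 12.90 to 13.17 in control liver (median 13.02), with no overlap. Its difference was -2.24 ± 0.14 (adjusted p = 1.05e-12), and its other tested probe gave -2.94.

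Of the 22 collagen genes that passed the filter on dim probes, 17 were higher and 2 lower in SAT at an adjusted p under 0.05, where 37.7% of the 10042 genes tested were higher and 26.3% lower (63.9% in either direction). The median difference was 2.36 for these 22 genes and 0.14 for all genes tested. Groups did not overlap for 14 collagen genes above liver and 1 below, and for 22.1% and 17% of all genes tested. Of the 17, 7 passed the filter through SAT alone. Among these *Col5a3*, *Col8a1*, *Col23a1* and *Col28a1* were detected in no control liver and could only be higher in SAT, and *Col1a2*, *Col5a2* and *Col15a1* were detected in some livers only. By class, 6 of 8 fibrillar genes, all 3 type IV chains tested and both type VI chains tested were higher, as were *Col14a1* and *Col16a1* of the FACIT class. *Col28a1* was at least 2.53-fold, *Col23a1* at least 1.70-fold and *Col8a1* at least 1.18-fold higher. *Col14a1* differed by 0.50 (adjusted p = 0.0309) and *Col16a1* by 2.20 (adjusted p = 1.11e-08).

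**Figure D2:**
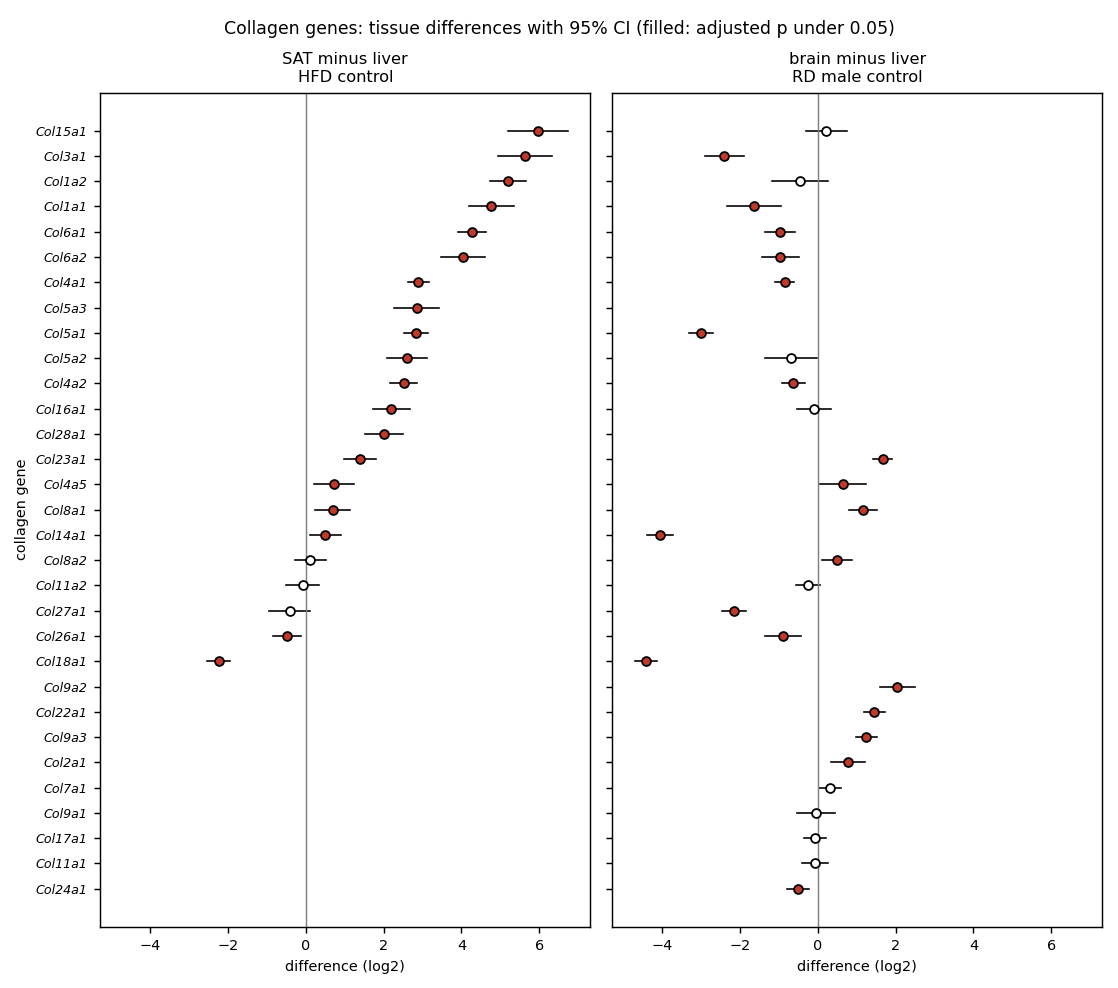
Difference in log2 intensity of each tested collagen gene between SAT and liver of HFD control males and between brain and liver of RD control males, with 95% confidence intervals; filled points passed an adjusted p of 0.05. *Col15a1*, *Col3a1* and *Col1a2* lie farthest above liver in SAT, and *Col18a1* and *Col14a1* farthest below liver in brain.

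The 3 tested genes that missed the threshold were *Col8a2* (0.12, adjusted p = 0.608), *Col11a2* (-0.08, adjusted p = 0.757) and *Col27a1* (-0.42, adjusted p = 0.169). The probes of 2 genes did not give 1 answer. *Col26a1* differed by -0.48 with its brighter probe (adjusted p = 0.0215) and by 1.79 with the other (adjusted p = 8.82e-05), so its direction was not settled. The probe at 1.79 was detected in no HFD liver and could only be higher in SAT. For *Col27a1*, 1 of its 3 tested probes passed the threshold at -0.81 (adjusted p = 0.00242). With median centring of the arrays in place of quantile normalization, *Col4a5*, *Col14a1* and *Col26a1* did not pass. *Col14a1* also lost its call without liver 1T-1 and without SAT 1R-1, 1T-3 or 1T-4 in turn, and *Col26a1* without SAT 1R-4 or 1T-1.

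The metformin offspring gave the same comparison in other animals. SAT against liver, 20 of 22 genes passed (17 higher, 3 lower, where 39.6% of all genes were higher, 27.2% lower and 66.8% either), and the median difference was 2.20. Here *Col15a1* differed by 6.52, *Col3a1* by 6.12 and *Col4a5* by 1.95.

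Markers of other cell types moved with these differences. Over all genes tested, 37.7% were higher and 26.3% lower in SAT. All 9 fibroblast and preadipocyte markers were higher in SAT, by a median of 3.04, and their mean was 8.42 to 8.94 in control SAT and 5.21 to 5.69 in control liver, where *Postn*, *Fap* and *Twist2* were not detected. The 10 muscle markers also stood higher, with their SAT levels given above. Of these *Acta1*, *Ckm*, *Tnnt3*, *Tnnc2*, *Atp2a1*, *Casq1* and *Myl1* were detected in no control liver. Genes of both lists that no control liver detected could only be higher in SAT. Of the 8 endothelial markers tested 6 were higher in SAT, and the mean of the list was 8.59 to 9.29 in control SAT and 8.04 to 8.54 in control liver. Of the 5 hepatic stellate cell markers tested 4 were lower and 1 higher in SAT, and the mean of the list was 5.98 to 6.86 in control SAT and 7.18 to 8.03 in control liver. *Lrat*, detected in no control SAT, could only be lower there. The part of these cell types in the collagen differences was not tested, and in bulk tissue fewer cells of a type and less RNA per cell cannot be told apart.

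Genes whose products fold, modify, cross-link or degrade collagen were followed from a list of 67 names, of which 56 were on the array and 44 were tested between SAT and liver of controls. In SAT 26 were higher and 8 lower, where 37.7% of all genes tested were higher and 26.3% lower, and 7 of the 26 had passed the filter through SAT alone. The median difference was 0.95 for these 44 genes and 0.14 for all genes tested. *Tnxb*, a matrix protein that binds collagen fibrils, averaged 11.22 in SAT and 6.65 in liver, a difference of 4.57 ± 0.18 (adjusted p = 8.78e-17). *Loxl1*, a lysyl oxidase-like enzyme of elastin and collagen cross-linking, was higher by 4.24 ± 0.19 (adjusted p = 2.38e-15). *Sparc*, a collagen-binding matrix protein, was higher by 2.91 ± 0.15 (adjusted p = 1.98e-14), and *Timp2*, an inhibitor of matrix metalloproteinases, by 2.70 ± 0.15 (adjusted p = 9.16e-14).

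By role, higher and lower genes in SAT numbered 7 and 3 of 13 for folding and hydroxylation, 1 and 0 of 3 for secretion, 2 and 1 of 3 for cross-linking, 5 and 1 of 6 for fibril partners, and 6 and 1 of 7 for breakdown and its inhibitors. Among the remaining roles, 1 of 3 propeptide-removing genes was higher and 1 lower, 2 of 5 receptors were higher, and 2 of 4 regulators were higher and 1 lower. *Serpinh1*, the collagen chaperone, was higher by 3.15 (adjusted p = 3.51e-11), and *Lox*, the lysyl oxidase that cross-links fibrils, by 3.97 (adjusted p = 9.41e-10). *P4hb*, a subunit of prolyl hydroxylase that also serves as a general disulfide isomerase, was lower in SAT (difference -0.93, adjusted p = 7.12e-06), as was fibronectin, *Fn1* (-2.15, adjusted p = 1e-10), which hepatocytes secrete.

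**Figure D3:**
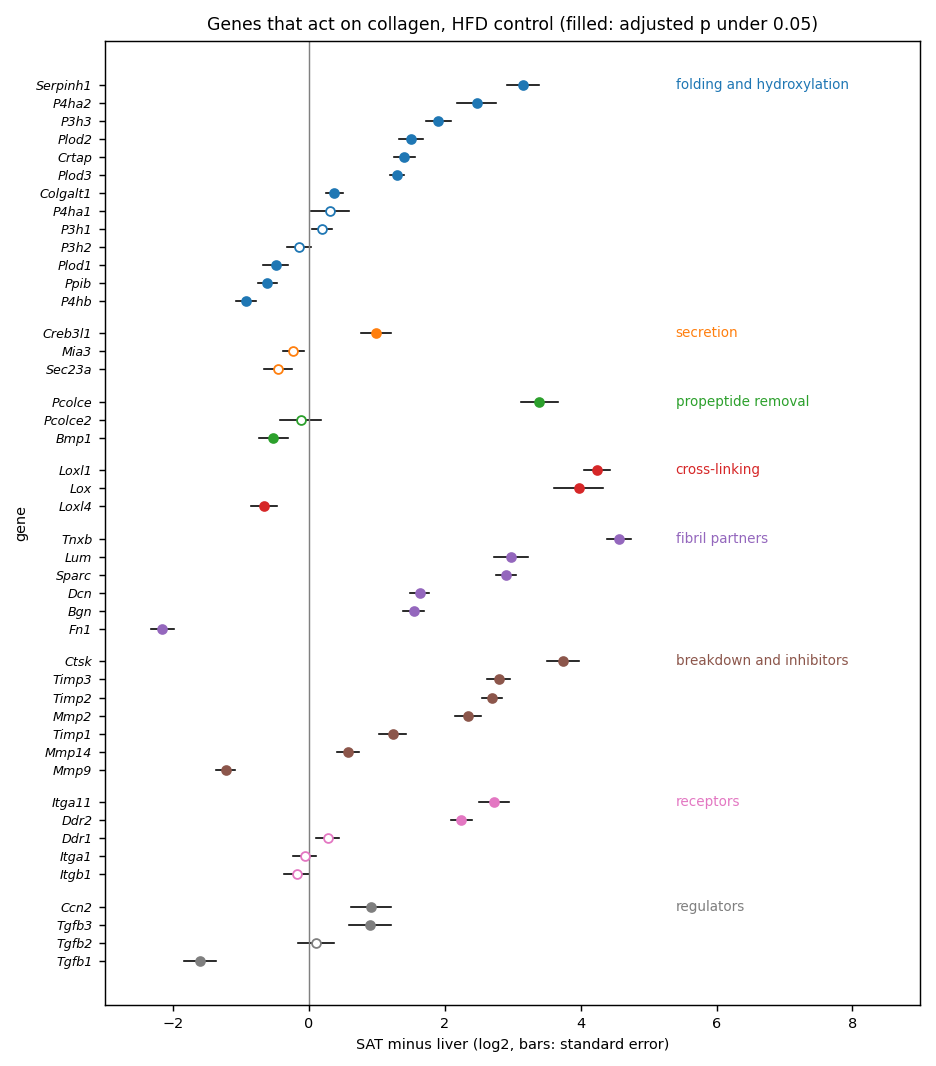
Difference in log2 intensity between SAT and liver of HFD control males for genes that act on collagen, grouped by role, with bars for the standard error. *Tnxb* (4.57) and *Loxl1* (4.24) lie highest, and *Fn1* (-2.15) is among the genes lower in SAT.

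The second comparison set brain against liver in RD control males. *Col18a1* and *Col14a1* stood at much lower levels in brain, as did the fibrillar *Col5a1* and *Col3a1*, whereas *Col9a2*, *Col9a3* and a few other minor collagens stood higher. *Col18a1* measured 8.70, 8.72 and 8.49 in brain, against 12.90, 13.06 and 13.22 in liver, a difference of -4.42 ± 0.13 (21.4-fold lower in brain, adjusted p = 3.65e-12). *Col14a1*, a FACIT collagen of fibril surfaces, measured 4.48, 4.45 and 4.45 in brain, where no array detected it, against 8.34, 8.57 and 8.62 in liver, and was at least 13.2-fold lower in brain (adjusted p = 2.92e-11). No brain overlapped any liver for either gene.

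*Col5a1* measured 6.81, 6.61 and 6.48 in brain, against 9.43, 9.80 and 9.68 in liver, a difference of -3.01 ± 0.14 (8.04-fold, adjusted p = 2.22e-10). *Col3a1* measured 5.24, 5.14 and 5.64 in brain, against 7.57, 7.95 and 7.74 in liver, a difference of -2.41 ± 0.23 (adjusted p = 5.02e-07). Both genes separated the tissues without overlap. *Col1a1* differed by -1.64 ± 0.32 (adjusted p = 0.000457), while for its partner *Col1a2* the difference was -0.46 with an interval of -1.19 to 0.26 (adjusted p = 0.227). *Col27a1*, a fibrillar collagen of cartilage, was lower in brain with both probes: the brighter probe was detected in no control brain, and the other, detected in 1 control brain, differed by -0.77 (adjusted p = 9.5e-05).

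The chains of types IV and VI differed less: *Col4a1* by -0.86 (adjusted p = 1.83e-05), *Col4a2* by -0.63 (adjusted p = 0.00105), *Col6a1* by -0.98 (adjusted p = 0.000205) and *Col6a2* by -0.97 (adjusted p = 0.00128). All 4 lost their calls under median centring of the arrays, a setting that moved the median of all genes tested to 0.53, against 0.06 in the quantile-normalized values. *Col24a1* (-0.52, adjusted p = 0.00282) lost its call there as well. *Col26a1* again gave opposite answers, -0.90 with its brighter probe and 4.36 with the other (adjusted p = 1.71e-12). The probe at 4.36 was detected in no RD male liver and could only be higher in brain.

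*Col9a2*, a chain of type IX collagen best known from cartilage, measured 6.91, 6.88 and 7.05 in brain, against 4.71, 5.03 and 4.96 in liver. The brains all lay above the livers, by 2.05 ± 0.21 (4.13-fold, adjusted p = 1.02e-06). Its partner *Col9a3*, detected in every control brain and in no control liver, was at least 1.62-fold higher, but a change of probe without the filter gave -0.05. *Col9a1*, another type IX chain, did not pass the threshold. It measured 4.66, 4.95 and 4.82 in brain, against 4.64, 4.62 and 5.30 in liver. *Col23a1*, a transmembrane collagen, was at least 2.38-fold higher in brain, *Col22a1*, a FACIT collagen of tissue junctions, at least 1.90-fold and *Col8a1*, a short-chain collagen, at least 1.84-fold. *Col2a1*, the main cartilage fibril chain, was higher by 0.77 (adjusted p = 0.00392), *Col4a5* by 0.66 (adjusted p = 0.0431) and *Col8a2* by 0.49 (adjusted p = 0.0261). The other probe of *Col4a5* gave 0.06 (adjusted p = 0.783), and *Col4a5* and *Col8a2* each lost the call when single samples were left out.

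Of the 29 collagen genes that passed the filter for this pair of tissues, 8 were higher and 12 lower in brain, where 40.3% of the 11972 genes tested were higher and 37% lower (77.3% in either direction). The filter had a part in these counts: 6 of the 8 higher genes passed it through brain alone (*Col2a1*, *Col8a1*, *Col9a2*, *Col9a3*, *Col22a1* and *Col23a1*) and 4 of the 12 lower genes through liver alone (*Col14a1*, *Col24a1*, *Col26a1* and *Col27a1*). Of these *Col8a1*, *Col9a3*, *Col22a1* and *Col23a1* were detected in no RD control male liver and could only be higher in brain. *Col14a1* and *Col27a1*, whose representing probes no brain array detected, could only be lower. The median difference was -0.25 for the collagen genes and 0.06 for all genes tested. With arrays centred on their medians, 10 were higher and 7 lower. In the metformin offspring 7 were higher and 15 lower, where 41.2% of all genes were higher and 37% lower (78.2% either). With the animal as a replicate block, 22 genes passed in controls. Of the 46 tested genes that act on collagen, 9 were higher and 29 lower in brain, with a median difference of -0.70.

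Markers of other cell types also separated control brain from control liver. Over all genes tested, 40.3% were higher and 37% lower in brain. All 8 endothelial markers tested were lower in brain, and the mean of the list was 6.60 to 6.76 in brain and 8.06 to 8.09 in liver. The stellate cell list averaged 6.01 to 6.12 in brain and 7.44 to 7.70 in liver, with 4 of 6 tested markers lower and 2 higher in brain. Of these *Lrat*, *Hgf*, *Des* and *Colec11* were detected in no control brain and could only be lower there. *Lhx2*, detected in no control liver, could only be higher. The chondrocyte list averaged 5.45 to 5.66 in brain and 5.01 to 5.04 in liver, with both tested markers higher in brain. Of its genes *Comp*, *Matn1*, *Matn3* and *Ucma* were detected in no control brain or liver, and *Acan* and *Hapln1* in no control liver. A tested marker other than *Sox9* could therefore only be higher in brain. The fibroblast and preadipocyte list averaged 6.24 to 6.30 in brain and 5.35 to 5.50 in liver, with 2 of 6 tested markers higher and 1 lower. In that list *Dpt* and *Postn* were detected in no control brain, and *Postn*, *Fap* and *Twist2* in no control liver. The part of these cell types in the collagen differences was not tested.

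For 20 collagen genes both tissue comparisons gave a value. Of these, 8 were higher in SAT than in liver and lower in brain than in liver (*Col1a1*, *Col3a1*, *Col4a1*, *Col4a2*, *Col5a1*, *Col6a1*, *Col6a2* and *Col14a1*), 3 were higher in both (*Col4a5*, *Col8a1* and *Col23a1*) and 2 were lower in both (*Col18a1* and *Col26a1*, the second on its brighter probe only). Of the 9691 genes with a value in both comparisons, 8.1% were higher in SAT and lower in brain, 20.2% higher in both and 20.8% lower in both. *Col8a1* and *Col23a1*, detected in no control liver of either study, could only be higher. *Col14a1*, detected in no brain, could only be lower in brain. SAT was set against HFD livers and brain against RD livers, so brain and SAT were not tested against each other.

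The third comparison asked whether prenatal metformin changed the collagen genes in SAT of HFD males. None of the 22 collagen genes tested passed an adjusted p of 0.05 in limma, where 0 of 9360 genes (0%) did. At an unadjusted p under 0.05, 2 of 22 collagen genes and 16.5% of all genes stood out, *Col4a5* and *Col5a2*, both with higher means in metformin SAT (9.08% of all genes in that direction). The median difference was 0.13 over the 22 genes and 0.03 over all genes tested. No collagen gene separated the groups without overlap, against 3.57% of all genes. The paper on these data lists *Col3a1*, *Col4a5*, *Col5a2* and *Col8a1* as higher in metformin SAT (moderated statistics, adjusted p under 0.05). It used another normalization and analysed these arrays in combination with those of the RD study. Why the calls differ was not tested.

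*Col4a5* measured 7.45, 7.67, 7.10, 7.98 and 7.42 in metformin SAT, against 6.58 to 7.19 in control SAT (median 7.03). One metformin sample, 3R-2, lay within the control range. The difference was 0.58 ± 0.18 (unadjusted p = 0.0059 and adjusted p = 0.188 in limma), and the other probe gave 0.33 (adjusted p = 0.327). *Col5a2* measured 7.99, 8.31, 8.70, 8.51 and 8.19 in metformin SAT, against 7.52 to 8.34 in control SAT (median 7.73). The groups overlapped through control 1T-4, and the difference was 0.55 ± 0.17 (unadjusted p = 0.0081 and adjusted p = 0.195 in limma), with 0.65 from the other probe. The other probes of *Col4a5* and *Col5a2* passed the filter through metformin SAT alone, which favours a higher metformin value.

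*Col3a1* measured 11.33, 12.69, 12.58, 12.50 and 11.87 in metformin SAT, against 10.87 to 12.24 in control SAT (median 11.63), a difference of 0.61 ± 0.29 (limma adjusted p = 0.317). Its other probe gave -0.02. *Col4a1* measured 14.05, 13.97, 13.80, 13.93 and 13.91 in metformin SAT, all within the control range of 13.79 to 14.52 (median 14.21). The difference was -0.25 ± 0.14 (limma adjusted p = 0.388), turned to 0.55 with arrays centred on their medians (where the median of all genes was also 0.55), and passed at -0.43 with array weights (limma adjusted p = 0.0243). For *Col11a2*, which passed the filter through metformin SAT alone, the difference was 0.35 (limma adjusted p = 0.379) and for *Col14a1* 0.32 (limma adjusted p = 0.457).

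For the type I chains the intervals were wide. *Col1a1* differed by -0.20, with an interval of -0.65 to 0.25, and *Col1a2* by 0.30, with an interval of -0.27 to 0.87. *Col4a2* differed by -0.24 (-0.69 to 0.20), *Col5a1* by -0.18 (-0.53 to 0.17), *Col6a1* by -0.07 (-0.41 to 0.28) and *Col6a2* by -0.01 (-0.65 to 0.63). The other tested probes of *Col6a1* gave -0.42 (unadjusted p = 0.0419, limma adjusted p = 0.288) and -0.55 (limma adjusted p = 0.454). The spread between SAT samples did not allow smaller changes to be told from none. One probe of *Col27a1* that does not represent the gene here gave 0.66 (unadjusted p = 0.00157, adjusted p = 0.144 in limma), while its other probes gave 0.17 and -0.30. The probes of *Col8a1* gave 0.34 and 0.77 (unadjusted p = 0.26 and 0.00965, adjusted p = 0.546 and 0.203 in limma). All these probes of *Col27a1* and *Col8a1* passed the filter through metformin SAT alone, which favours a higher metformin value.

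**Figure D4:**
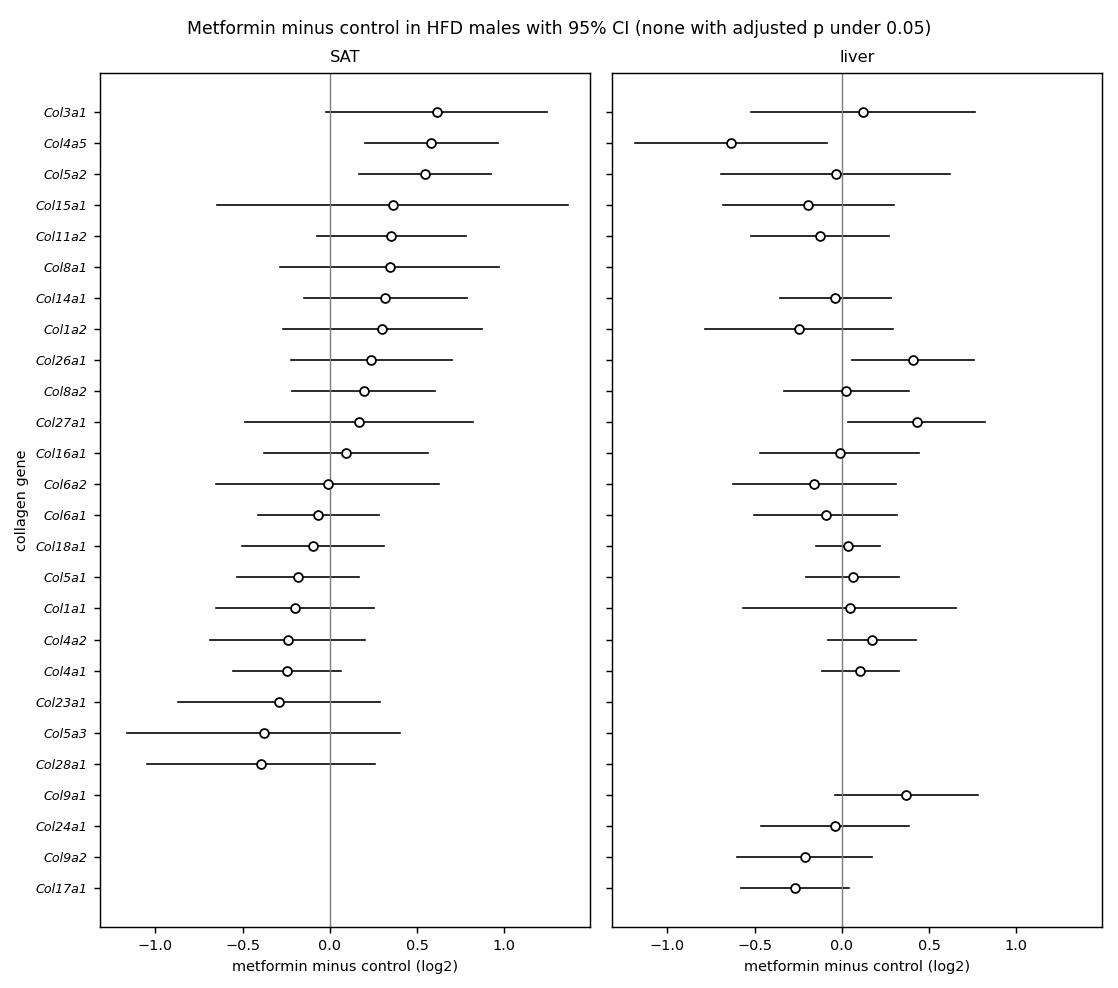
Difference in log2 intensity between metformin and control offspring of HFD dams for each tested collagen gene, in SAT and in liver, with 95% confidence intervals. No gene passed an adjusted p of 0.05 in either tissue, and *Col4a5* lies at 0.58 in SAT and -0.64 in liver.

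Marker genes also varied between these SAT samples. Skeletal muscle genes had a median difference of 2.17 between metformin and control SAT, with none of the 9 tested past the adjusted threshold and 2 at an unadjusted p under 0.05, where 16.5% of all genes had one. For endothelial genes, whose cells lie on type IV collagen, the median difference was -0.47 with 0 of 8 past the adjusted threshold and 4 at an unadjusted p under 0.05 (again 16.5% of all genes), and their mean was 8.36 to 8.81 in metformin SAT and 8.59 to 9.29 in control SAT. Their part in the collagen values was not tested. *Col17a1* and *Col7a1*, chains of the hemidesmosome and of the anchoring fibrils of skin, did not pass the filter in SAT, but both were high in the sample with high keratinocyte genes, metformin animal 3R-1, at 8.50 and 7.84, against 4.70 to 5.20 and 4.66 to 5.57 in the other metformin SAT samples. They are named after their values were seen. Without this sample no collagen gene passed either.

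**Figure D5:**
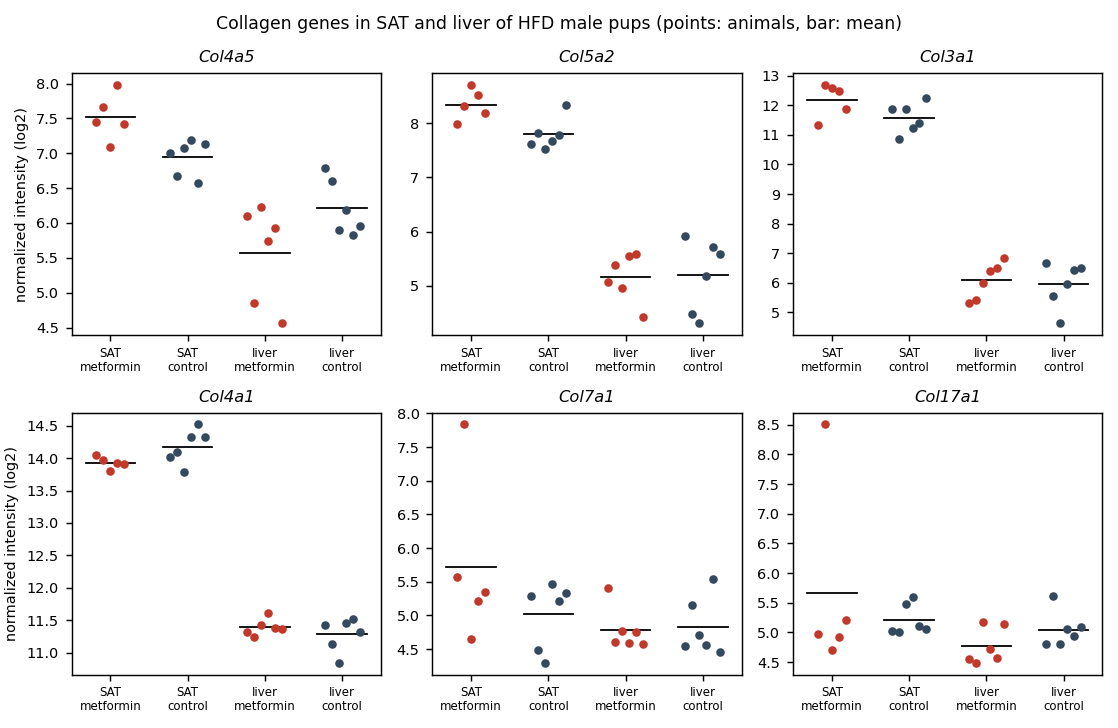
Normalized log2 intensity of 6 collagen genes in single HFD animals, with metformin samples left of controls in SAT and in liver. Metformin SAT sample 3R-1 stands apart for *Col7a1* (7.84) and *Col17a1* (8.50), and *Col4a5* overlaps between metformin and control in both tissues.

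In HFD liver the same question gave the same count. None of the 22 collagen genes tested passed (limma, adjusted p under 0.05), where 60 of 10046 genes (0.597%) did, and 3 of 22 had an unadjusted p under 0.05, where 17.2% of all genes did. The median difference was -0.02 over the collagen genes and -0.003 over all genes. *Col4a5* ranged from 4.56 to 6.24 in metformin liver (median 5.83), against 5.82 to 6.79 in control liver (median 6.07). The lowest values came from metformin animals 3R-6 (4.56), a dim array, and 10K-2 (4.86), and the groups overlapped. The difference was -0.64 ± 0.27 (unadjusted p = 0.025, adjusted p = 0.212 in limma) and -0.36 without the dim arrays, and the other probe gave -0.19.

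*Col26a1* differed by 0.41 ± 0.17 (unadjusted p = 0.0243, adjusted p = 0.21 in limma) and *Col27a1* by 0.43 ± 0.19 (unadjusted p = 0.0343, adjusted p = 0.241 in limma), while another *Col27a1* probe gave -0.26. *Col9a1* (0.37) and *Col17a1* (-0.27) were near the detection limit and passed the filter through RD livers alone. *Col4a2* differed by 0.17 (limma adjusted p = 0.489) and by -0.26 with arrays centred on their medians. The fibril chains had wide intervals around small differences, with *Col1a1* at 0.05 (-0.57 to 0.66), *Col1a2* at -0.25 (-0.79 to 0.29), *Col3a1* at 0.12 (-0.52 to 0.76), *Col5a1* at 0.06 (-0.20 to 0.33) and *Col5a2* at -0.04 (-0.69 to 0.62). *Col4a1* differed by 0.11 (-0.12 to 0.33), *Col6a1* by -0.09 (-0.50 to 0.32) and *Col6a2* by -0.16 (-0.63 to 0.31). *Col18a1*, whose level varied little between livers, differed by 0.04 (-0.15 to 0.22).

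The metformin effects in SAT and in liver were then set against each other. None of the 22 collagen genes tested differed between the tissues at an adjusted p under 0.05 in limma, where 0 of 10042 genes (0%) did, and 1 of 22 had an unadjusted p under 0.05, where 15.3% of all genes did. That gene was *Col4a5*, with a difference of effects of 1.22 ± 0.36 (interval 0.47 to 1.97, unadjusted p = 0.00258, adjusted p = 0.131 in limma). With the animal as a replicate block, since SAT and liver came from the same animals, the value was 1.24 and passed (limma adjusted p = 0.0459). It was 0.91 without the dim arrays (limma adjusted p = 0.241), and 0.93 with both the block and their removal (limma adjusted p = 0.154). The other probe of *Col4a5* gave 0.52 (limma adjusted p = 0.223). *Col8a1*, the next gene by p, differed by 0.59 (limma adjusted p = 0.344), and its other probe by 0.76 (unadjusted p = 0.00831, limma adjusted p = 0.187). One of the dimmer probes of *Col27a1* gave 0.92 (unadjusted p = 0.00711, limma adjusted p = 0.177), against -0.26 with the probe that represents the gene. Both *Col8a1* probes, the other *Col4a5* probe and this dimmer *Col27a1* probe passed the filter through metformin SAT alone, which favours a positive difference. The major chains of types I, III, IV, V and VI lay between -0.41 for *Col4a2* and 0.58 for *Col5a2*.

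Genes that act on collagen gave the same count. In SAT none of 43 passed in limma, where 0% of all genes did, and 7 had an unadjusted p under 0.05, where 16.5% of all genes did. *Tgfb2*, a growth factor that raises collagen synthesis in many cells, averaged 5.87 in metformin SAT and 5.07 in control SAT, a difference of 0.80 ± 0.20 (unadjusted p = 0.00178, adjusted p = 0.144). *Ddr1*, a collagen receptor kinase, averaged 7.95 in metformin SAT and 7.16 in control SAT (difference 0.79, adjusted p = 0.187). These 2 of the 43 did not overlap between the groups, where 3.57% of all genes did not, and *Tgfb2* had passed the filter through metformin SAT alone. *P4ha1*, a prolyl hydroxylase subunit, differed by 0.70 (adjusted p = 0.26, also filtered in through metformin SAT alone) and *Itgb1*, a collagen receptor subunit, by -0.43 (adjusted p = 0.27). The paper lists *Ddr1* and *Serpinh1* as higher in metformin SAT (moderated statistics, adjusted p under 0.05), with the normalization and combined arrays named above. Why these calls differ was not tested.

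In HFD liver none of 44 genes acting on collagen passed in limma, where 0.597% of all genes did, and 4 had an unadjusted p under 0.05, where 17.2% of all genes did. *Sec23a*, a coat protein of procollagen export, averaged 5.67 in metformin liver and 6.28 in control liver (difference -0.61, adjusted p = 0.1). *Pcolce2*, an enhancer of procollagen cleavage, averaged 7.66 in metformin liver and 6.86 in control liver (difference 0.80, adjusted p = 0.125). *Plod3*, a lysyl hydroxylase, differed by 0.28 (adjusted p = 0.164) and *Mmp2*, a gelatinase, by -0.39 (adjusted p = 0.182).

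On the regular diet no collagen gene passed either, in groups of 3. In RD male liver none of 22 passed in limma, where 1 of 10046 genes (0.00995%) did, and 1 had an unadjusted p under 0.05, where 4.44% of all genes did. This was *Col17a1*, at 5.46, 5.37 and 5.18 in metformin liver, against 4.84, 4.70 and 4.72 in control liver (unadjusted p = 0.0104, adjusted p = 0.85 in limma). Its probe was detected in each of these metformin livers and in none of these controls, and passed the filter through this metformin group alone, so it could only be higher there. *Col18a1* differed by -0.22 (unadjusted p = 0.0977). In RD female liver none of 22 passed, where 0 of 10046 genes (0%) did, and 2 had an unadjusted p under 0.05 in limma, where 4.15% of all genes did. *Col1a2* measured 6.13, 5.64 and 4.73 in metformin females, against 6.04, 6.88 and 5.99 in control females (difference -0.80, unadjusted p = 0.0391, limma adjusted p = 1). *Col9a2* differed by -0.58 (unadjusted p = 0.0375). Among female livers both genes were missed in 1 or more metformin samples and detected in each control, and *Col9a2* passed the filter through the female controls alone, which favours a lower metformin value.

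In RD male brain none of 25 collagen genes passed in limma, where 1 of 10695 genes (0.00935%) did, and none had an unadjusted p under 0.05, where 1.76% of all genes did. *Col1a1* measured 7.55, 6.70 and 6.57 in metformin brain, against 6.70, 6.34 and 6.31 in control brain (difference 0.49, unadjusted p = 0.0874). *Col6a1* differed by 0.26 (unadjusted p = 0.0588). Over *Col1a1*, *Col1a2*, *Col3a1*, *Col4a1*, *Col4a2*, *Col5a1*, *Col5a2*, *Col6a1* and *Col6a2*, the metformin differences ran from -0.33 to 0.32 in RD male liver, -0.80 to -0.11 in RD female liver and -0.26 to 0.49 in RD male brain. Under median centring the median of all genes in RD female liver moved to -0.47, against -0.01 in the quantile-normalized values.

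Between RD females and males 0 of 22 collagen genes differed in their metformin effect past the adjusted threshold in limma, where 0 of 10046 genes (0%) did. *Col9a2* (-1.01) and *Col8a2* (-0.72) had an unadjusted p under 0.05, where 1.03% of all genes did. They passed the filter only through control females and, for *Col8a2*, also metformin males, groups whose high values make this difference negative. Between HFD and RD male liver 0 of 22 differed in their effect, where 0.139% of all genes did. *Col17a1* (adjusted p = 0.15 in limma) and *Col27a1* (0.85, adjusted p = 0.239 in limma) had the smallest p of the 3 collagen genes with an unadjusted p under 0.05, where 13% of all genes had one. *Col17a1* passed the filter through RD metformin males alone, which makes its difference negative, and the other probe of *Col27a1* gave 0.02.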

How the data were processed

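Illumina mouse WG-6 v2 bead arrays were summarised by the authors to 1 intensity per probe and sample and deposited, not normalized, with a detection p-value for each. Whether background was subtracted is not given in the sources used here. The authors also deposited log2 values, variance-stabilised and spline-normalized in lumi (version not given in the sources used here), which served as an alternative. No column belonged to other samples.

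Intensities of all 41 arrays were background-corrected by normexp on the negative-control information in the detection p-values, given an offset of 16, quantile-normalized and log2-transformed (neqc in limma 3.58.1, R 4.3.3). Probes entered a model if some group in it had a detection p below 0.05 in each of its samples. A gene was represented by its kept probe with the highest mean. Models were fitted with lmFit and eBayes over all kept probes, with Benjamini-Hochberg adjustment and a threshold of 0.05. SAT against liver used 23 arrays, brain against liver 12, metformin in SAT 11, in liver 24 and in brain 6. The number of arrays limits the precision. SAT and liver, and brain and liver, were paired by animal, as the labels show. Deviations from group means correlated at 0.03 to 0.35 over 11 SAT and liver pairs and -0.04 to 0.33 over 6 brain and liver pairs. Replicates of a group were separate animals, and no array pair had a rank correlation over 0.955.

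A gene that no array of a group detected has only a bound there, given as "at least", from the lowest detected signal of each array. The collagen genes, the lists and the tests were chosen with earlier results of these data known. Genes were named as up to 10 largest differences per direction past the threshold between tissues, and as those of smallest p for metformin, and the chains of types I, III and VI, *Col4a1*, *Col4a2*, *Col5a1* and *Col5a2* always. Other genes named, such as *Serpinh1*, *Lox*, *P4hb* and *Fn1*, were picked once their values were known. The models were tested on simulated data. Alternatives were the authors' log2 values, other background, centring, filter, weight, block and array choices, and leaving out single samples.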

Additional observations from a re-analysis of the deposited data

Results flagged for a closer look

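Among 95 combinations of a collagen gene and an HFD group, 11 held a sample far from the rest of its group (4 in SAT, 7 in liver). Chance alone marks about 1 in 20 groups for genes picked beforehand. *Col7a1* was added to these genes after its values were seen, and was flagged in SAT and in liver. Several flags also fall on the same sample. The count therefore cannot be set against that rate. In SAT of metformin animal 3R-1, *Col17a1* was 8.505 (others 4.70 to 5.20) and *Col7a1* 7.836 (others 4.66 to 5.57), in the sample that also had the highest keratinocyte marker mean, whose part was not tested. In control SAT, *Col14a1* was 8.254 in 1T-1, a dim array (others 8.93 to 9.28), and *Col5a2* was 8.342 in 1T-4 (others 7.52 to 7.82).

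Control liver 1T-1 was lowest for 3 genes: *Col14a1* at 7.585 (others 8.403 to 8.79), *Col5a1* at 9.332 (others 10.04 to 10.19) and *Col1a2* at 4.475 (others 4.92 to 5.11, not detected in 1T-1). The mean of the hepatic stellate cell markers was also lowest there, at 7.18, and its part was not tested. In control liver 1R-4, *Col17a1* was 5.605 (others 4.80 to 5.08). In metformin livers, *Col7a1* (5.402, others 4.58 to 4.77) and *Col9a2* (5.046, others 4.28 to 4.53) were highest in 10K-1, and *Col8a2* (5.767, others 4.66 to 4.82) in 3R-6, a dim array.

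The metformin effect on *Col4a5* differed between SAT and liver by 1.24 when the animal was a block (limma adjusted p = 0.0459), and by 0.93 without the dim arrays (limma adjusted p = 0.154).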

How the results depend on the processing

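SAT against liver in controls gave 16 to 20 collagen genes over all settings, 19 with the animal as a replicate block and 18 to 19 leaving out single samples. Over all genes 6418 passed there in the reported setting, and 3280 (arrays centred on their medians) to 7092 under other settings. Brain against liver gave 17 to 23 collagen genes, 22 with the replicate block and 18 to 20 leaving out single samples. Over all genes 9258 passed there in the reported setting, and 8603 to 9885 under other settings. For named genes, 319 of 324 values under other settings kept their direction and side of the threshold in SAT against liver and 305 of 324 in brain against liver. These genes were named for the largest differences in the same data, which favours stable values. In SAT against liver they leave out *Col4a5* and *Col14a1*, which lost their calls as given above. Every metformin comparison and both comparisons of metformin effects between RD sexes and between diets stayed at 0 to 0 collagen genes when single samples were left out. The metformin count in SAT was 1 with array weights (*Col4a1*), when 598 genes passed in all, 841 passed with all 41 arrays in one model and 159 without the 1T controls. The difference of effects between SAT and liver was 1 with all 41 arrays in one model and 1 with the animal as a replicate block (both *Col4a5*), with 258 and 208 genes in all. Over all genes, this difference gave 0 in the reported setting, 324 with array weights, 36 with the authors' values and 0 to 66 leaving out single samples (66 without SAT 3R-1, 30 without SAT 1T-2). In HFD liver 60 genes passed, 0 to 132 under other settings and 11 to 177 leaving out single samples (11 without 3R-2, 177 without 10K-2, 140 without control 1T-2). In RD male liver 1 passed, and 34 without metformin 3E. The sexes differed in 0, and in 30 without metformin 3E. HFD and RD effects differed in 14, and in 1 to 64 leaving out single samples (64 without metformin 6F). Values that turned sign were *Col9a3* in brain against liver without the filter (-0.048, through another probe), and, with arrays centred on their medians, *Col4a1* in SAT (0.554) and *Col4a2* in HFD liver (-0.256). The cause was not tested. Centring moved the median of all genes tested to 0.55 in SAT, -0.22 in HFD liver, 0.76 in the difference of effects and -0.47 in RD female liver. The authors' log2 values shrank the SAT against liver median of the collagen genes to 0.85. Genes near background, such as *Col9a1* or *Col17a1*, have little signal to show a difference.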

Other observations

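*Col3a1* lay at different levels in the livers of the 2 studies. It measured 5.31 to 6.84 in HFD metformin males and 7.21 to 8.34 in RD metformin males, and 4.62 to 6.66 in HFD control males and 7.57 to 7.95 in RD control males. *Col18a1* ranged from 12.90 to 13.17 in HFD control males and from 12.90 to 13.22 in RD control males. Maternal diet and study cannot be told apart in these values, and no test was run.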
